A study of Mus musculus with 2 samples.

Results

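Genes that carry metals across membranes or handle iron inside the cell were compared between granulocytes and monocytes sorted from mouse bone marrow. The genes were found on the array by their names: every solute carrier of the families Slc11a, Slc30a, Slc31a, Slc39a, Slc40a and Slc41a, and 15 single genes of transferrin uptake, ferritin storage, haem breakdown, iron sensing and metallothionein buffering. This gave 46 of the 19729 named genes on the array, read by 70 probes of 60 bases each. The hepcidin gene Hamp was among the 15 names, but no probe carried that name. A probe named Hamp1, with a RefSeq accession of Hamp, was not well above background on either array, and 3 probes under an older name of Slc30a7 were not counted as members.

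Both cell samples came from male C57BL/6 mice of wild type genotype, with no treatment named in the labels. Each cell type was measured once, on 1 one-colour array, so 2 arrays made up the whole series. Differences therefore had no replicate check and no test, and the number of arrays limited their precision. The sources used here do not give the surface markers of the sort, the age of the mice or their number. Both arrays were of 1 slide and 1 scan. In RNA from a sorted sample, fewer cells of a type and less RNA per cell cannot be told apart.

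Metals in a cell are kept within narrow limits by importers, exporters and binding proteins. ZIP proteins (Slc39a) bring zinc into the cytosol, ZnT proteins (Slc30a) remove it to the outside or into vesicles, and metallothioneins bind what is free. Iron enters bound to transferrin through the transferrin receptor, crosses the endosomal membrane after reduction by Steap proteins, is stored in ferritin and leaves through ferroportin. Iron regulatory proteins bind messenger RNAs of these genes and adjust their use to the iron supply. Phagocytes have a part of their own in this system, since macrophages recover iron from old red cells and neutrophils withhold metals from microbes.

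A level below is the log2 processed signal of a probe minus the 75th percentile of its array. A difference is the granulocyte level minus the monocyte level on the log2 scale. Its error (±) is that of the scanner software, a technical error only. It is that of a single spot, or of a mean of 10 spots for Mt1 and Tfrc, where averaging makes it smaller. Levels of different probes were not compared, since probes bind with different strength. Where a probe was not well above background on 1 array, its difference is a bound.

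The probes themselves show what was read. The sequences of 4 coding probes are printed. Those of Slc11a2 and Slc41a1 are shown because other probes of these genes gave another result, and those of Mt1 and Steap4 because they carry differences past 4-fold that a second probe also gave. Positions come from the files (mouse build mm8), and sequences run 5′ to 3′ as the files give them. In the Mt1 probe the capitals mark the cysteine codons of its reading frame, 6 of 19 codons. These encode the residues that hold zinc and copper. In the other probes no letter is marked. The probes of Slc41a1 and Steap4 span 2123 and 1782 bases of the genome, so each joins more than 1 exon.
Mt1, chr8:97069240-97069299, plus strand: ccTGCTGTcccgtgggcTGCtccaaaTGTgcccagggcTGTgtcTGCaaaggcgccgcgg
Slc11a2, chr15:100238119-100238178, minus strand: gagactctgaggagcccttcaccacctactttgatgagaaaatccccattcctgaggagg
Slc41a1, chr1:133672000-133674122, plus strand: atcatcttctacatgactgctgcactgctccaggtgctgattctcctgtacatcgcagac
Steap4, chr5:7984538-7986319, plus strand: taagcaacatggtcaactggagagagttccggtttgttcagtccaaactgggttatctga

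The labels were checked first. All 10 granulocyte markers were higher on the granulocyte array, with differences from 1.06 for S100a9 to 9.65 for Mmp9, and all 8 monocyte markers were higher on the monocyte array, from -1.56 for Csf1r to -8.51 for Fn1. The summed scaled signal of the granulocyte markers was 4119 in granulocytes and 1042 in monocytes, and that of the monocyte markers 15.0 and 525.8. On the monocyte array S100a9, S100a8, Ltf, Camp and Ngp had levels from 6.96 to 8.70. The levels of Cxcr2, Mmp9, Retnlg, Csf3r and Mmp8 there ran from -2.81 to 3.14. The part of granulocyte RNA in the monocyte values was not tested. Signal was stronger on the monocyte array, with a 75th percentile of 620.9 against 339.4 units, and the scaling removed this shift of 0.87. The median difference over all 15609 genes above background on at least 1 array was 0.41, and the median over members was 0.23. Without scaling these medians were -0.42 and -0.57, so the sign of small differences follows the scaling.

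Of the 46 members, 41 were well above background on at least 1 array and 35 on both. Cp and Steap4 were above background in granulocytes only. Slc30a4, Slc30a8, Slc39a8 and Slc41a2 were above background in monocytes only. The members above background on neither array were Slc30a2, Slc30a3, Slc30a10, Slc39a5 and Slc39a12, transporters best known from mammary gland, synaptic vesicles, manganese export, gut and brain. Of the 41, 4 passed 4-fold on the granulocyte side (9.76%) and 5 on the monocyte side (12.2%). Over all genes these shares were 8.54% and 10.4%, so the members' shares were near the background. At least 2-fold higher were 11 members in granulocytes and 9 in monocytes, against 29.1% and 20.9% of all genes. The other 21 members (51.2%) differed by less than 2-fold, as did 50.1% of all genes.

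**Figure D1:**
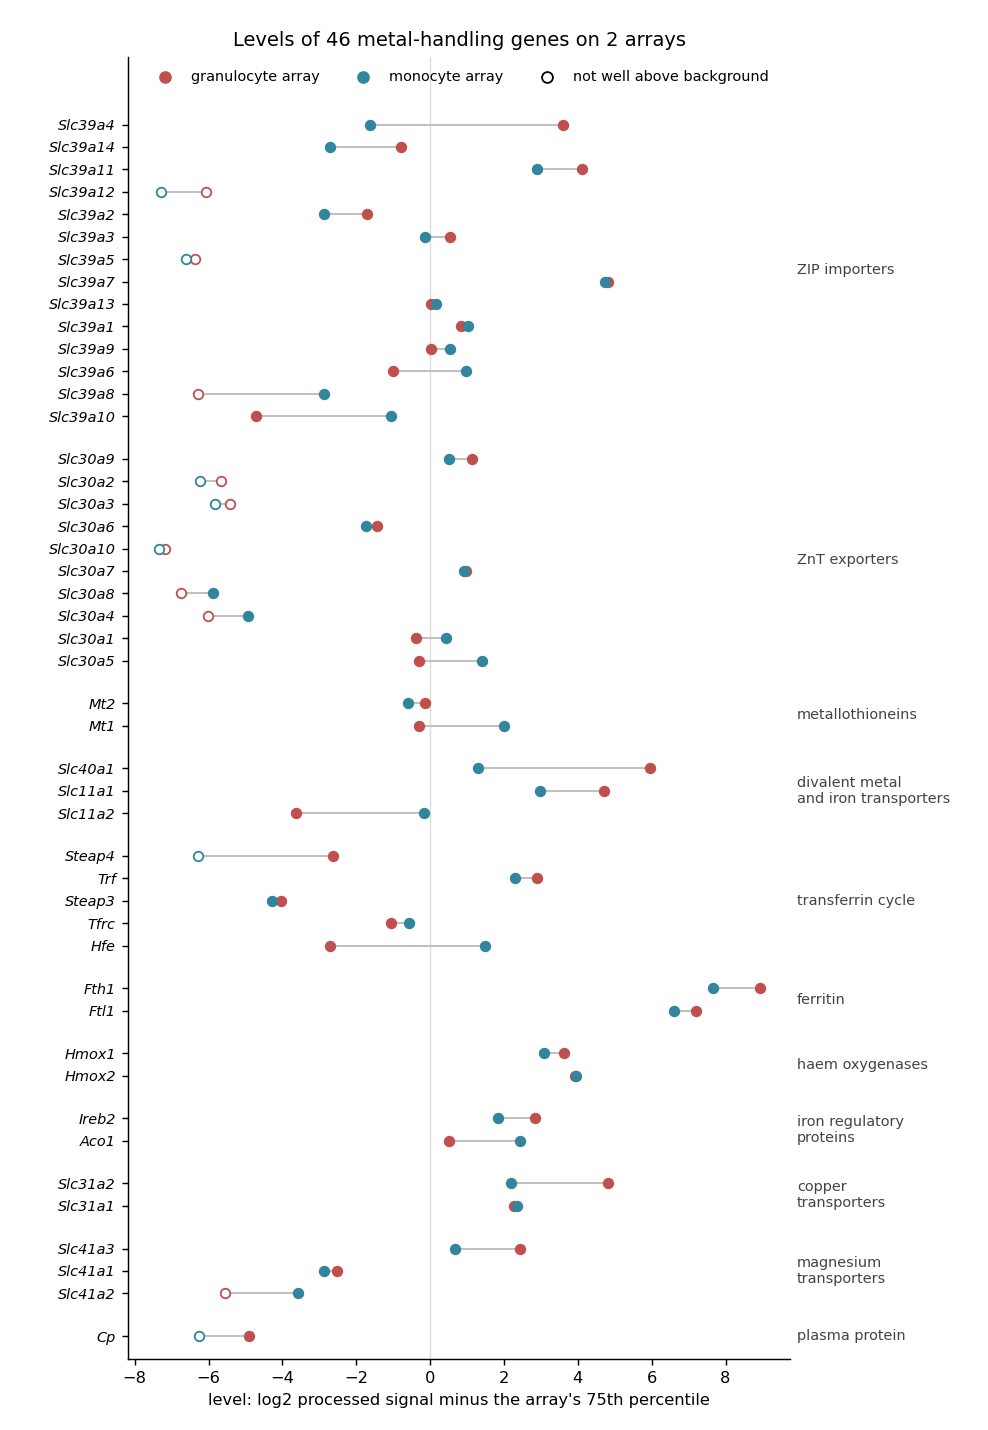
Levels of the 46 genes on the granulocyte array (red) and the monocyte array (blue), as log2 processed signal minus the array's 75th percentile. Each pair of points is the probe that represents a gene, open points are not well above background, and only the 2 points of 1 gene may be compared. The widest gaps are those of Slc39a4 and Slc40a1, higher in granulocytes, and of Hfe, higher in monocytes.

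Zinc importers differed in both directions. Slc39a4, the gene of the zinc importer that takes up dietary zinc in the gut, was 37.6-fold higher in granulocytes. Slc39a10 and Slc39a8 were higher in monocytes. Of 14 ZIP genes, 12 were above background, and their median difference was -0.03. Past 4-fold were 1 (8.33%) on the granulocyte side and 2 (16.7%) on the monocyte side. With so few genes these counts are near the background shares of 8.54% and 10.4%.

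The processed signal of Slc39a4 was 4129.6 in granulocytes and 200.7 in monocytes, levels of 3.61 and -1.63. Granulocytes were clearly the brighter sample at this probe (chr15:76439691-76439750). The difference was 5.23 ± 0.20, and 0.564% of all genes were as far or further to the granulocyte side. Under the other scalings it ran from 4.36 to 5.19.

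Slc39a10, which codes for a zinc importer of the cell surface, had a signal of 12.9 in granulocytes and 298.3 in monocytes. Its levels were -4.72 and -1.06, so the granulocyte value was close to the background. The difference was -3.66 ± 0.35, or 12.7-fold, at chr1:46753044-46753103. With the normexp background correction, which adds an offset to every spot, it was -1.39 and no longer 4-fold. Slc39a8, an importer of zinc and manganese, had a signal of 4.36 in granulocytes, not well above background, and 84.7 in monocytes. Its difference was therefore at most -2.29, or at least 4.89-fold higher in monocytes. Its other probes were not above background on either array, and normexp correction gave -0.27.

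Slc39a6, the closest relative of Slc39a10, lay just short of the limit with a difference of -1.98 (signals of 168.8 and 1215). It passed 4-fold with median scaling (-2.02), quantile normalisation (-2.06), the authors' deposited value table (-2.16), the spike-in controls (-2.47) and no scaling (-2.85). Normexp correction gave -1.67. Both members of this related pair were thus brighter in monocytes. Slc39a14, an importer of zinc, manganese and iron that is not bound to transferrin, had signals of 198.1 and 94.7 and a difference of 1.94. Its other probe, 2.90 kb further 3′, was above background in monocytes only, with signals of 2.24 and 22.3 and a bound of -0.37, so the probes pointed in opposite directions.

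Slc39a11 (1.23) and Slc39a2 (1.18) were higher in granulocytes by at least 2-fold. Both fell below it without scaling (0.36 and 0.31) and with the spike-in controls (0.73 and 0.68). Slc39a11 also fell below it with quantile normalisation (0.79), and Slc39a2 with normexp correction (0.95) and the authors' deposited value table (0.99). Slc39a3 (0.67), Slc39a7 (0.09), Slc39a13 (-0.15), Slc39a1 (-0.20) and Slc39a9 (-0.51) differed by less than 2-fold. Without scaling Slc39a9 (-1.39), Slc39a1 (-1.07) and Slc39a13 (-1.02) passed 2-fold, and Slc39a9 also did with the spike-in controls (-1.01). Slc39a7 releases zinc from the endoplasmic reticulum and Golgi. Its signals were 9571 and 16438, and its sign turned with quantile normalisation, normexp correction, the authors' deposited value table, the spike-in controls and no scaling. Slc39a3 was negative without scaling. The Slc39a13 probe behind its value (chr2:90862818-90862877) had signals of 345.0 and 698.1 and a difference of -0.15 ± 0.20. A second Slc39a13 probe, 985 bases upstream, had 261.6 and 291.2 and a difference of 0.72 ± 0.20. The Slc39a1 probe behind its value (chr3:90339300-90339359) had signals of 603.8 and 1270 and a difference of -0.20 ± 0.20. A second probe named Slc39a1 had 16.1 and 24.1 and a difference of 0.29 ± 0.33, but the files place it on the minus strand and the first on the plus strand, so it may not read the same transcript.

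Of the 10 ZnT zinc exporters, 7 were above background, and 0 passed 4-fold in either direction. With so few genes this count is near the background shares of 8.54% and 10.4%. Their differences ran from -1.72 to 0.60 with a median of 0.0, and Slc30a5 was the one past 2-fold. That median is the bound of Slc30a8, and over the exporters above background on both arrays the median was 0.06. Slc30a5, a transporter that fills the early secretory pathway with zinc, had signals of 273.2 in granulocytes and 1649 in monocytes, a difference of -1.72 ± 0.20. Its second probe gave -1.75 and its last, above background in monocytes only, a bound of -0.79. Slc30a5 passed 4-fold with the spike-in controls (-2.22) and without scaling (-2.59). Its partner in that compartment, Slc30a6, gave 0.31, and Slc30a7, of the same compartment, gave 0.06. Slc30a1, the exporter of the plasma membrane, was lower in granulocytes by both of its probes (-0.82 and -0.51). It passed 2-fold with the authors' deposited value table (-1.01), the spike-in controls (-1.32) and no scaling (-1.70). Slc30a9 was higher by all 3 of its probes (0.60, 0.46 and 0.69), though its reported difference turned negative without scaling, as did those of Slc30a6 and Slc30a7, which also turned with the spike-in controls (Slc30a7 with quantile normalisation and the authors' deposited value table too). Slc30a4 had signals of 5.20 and 20.2 and a bound of -0.22. Slc30a8, the zinc transporter of insulin granules, had signals of 3.15 and 10.5, which allow no fold.

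The 2 metallothioneins, small cysteine-rich proteins that bind zinc and copper, were unlike each other. The Mt1 signal was 275.3 in granulocytes and 2466 in monocytes, each a mean of 10 spots of the probe printed above. Its difference was -2.29 ± 0.06, or 4.90-fold, and the second Mt1 probe gave -2.36. Mt2 had signals of 309.4 and 411.3 and a difference of 0.46 ± 0.20, which turned negative without scaling and with the spike-in controls. The genes are neighbours, with probes 6.64 kb apart on chromosome 8, and their differences lay 2.75 ± 0.21 apart. The Mt1 and Mt2 probes share no more than 5 bases in a row.

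**Figure D2:**
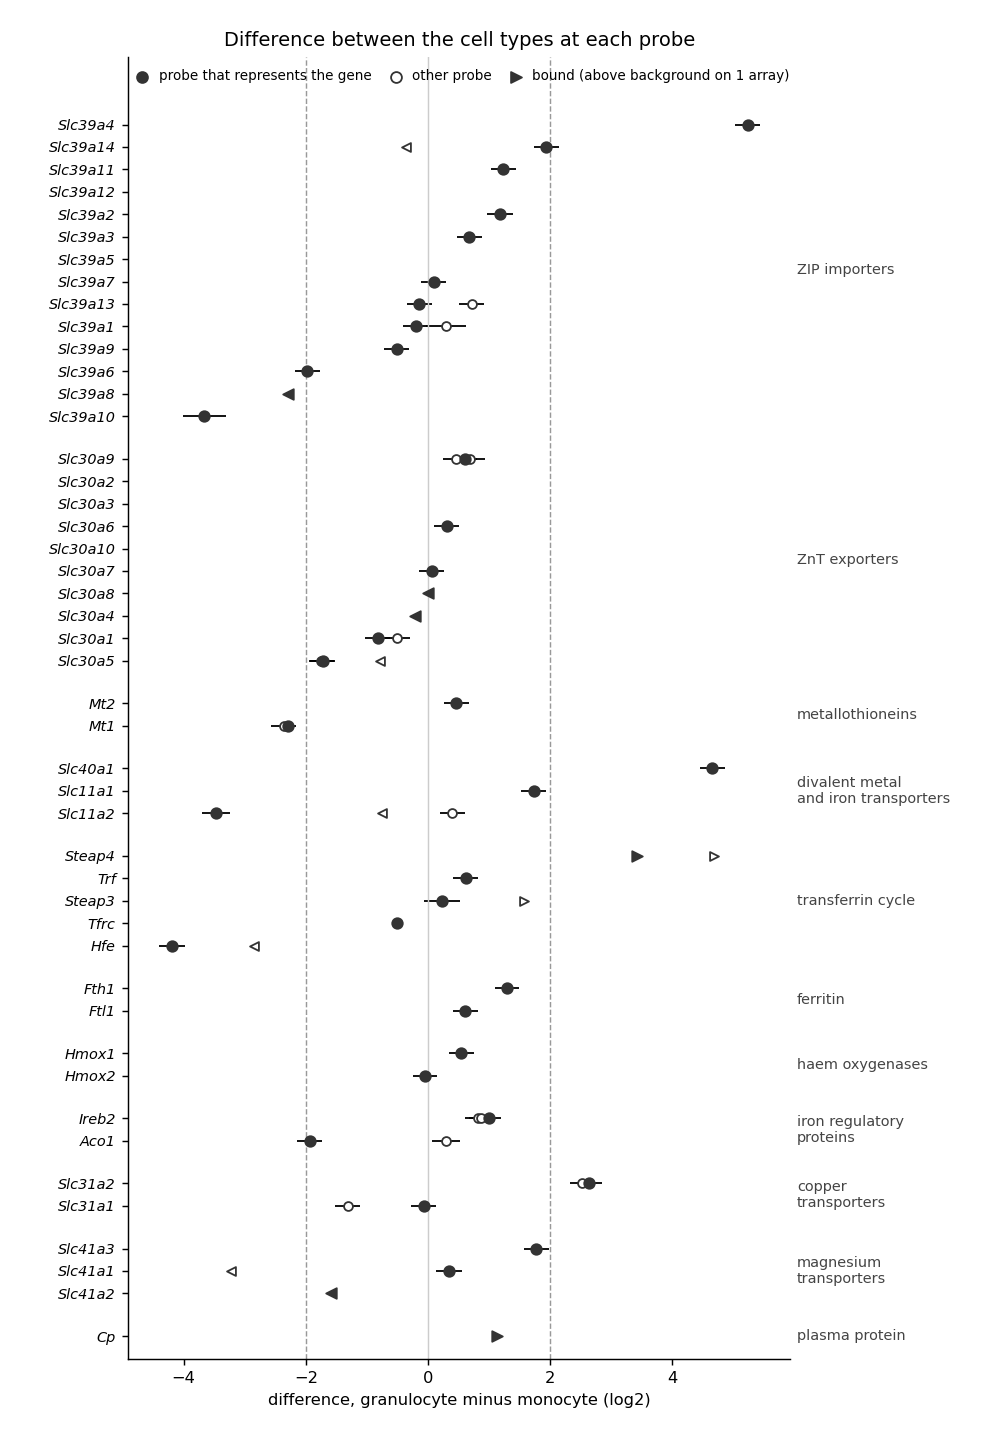
Difference between granulocytes and monocytes (log2) at every member probe above background on at least 1 array, by role. Filled points are the probe that represents the gene, open points its other probes, bars the scanner software's error, triangles bounds that point to where the value may lie, and dashed lines 4-fold. Probes of Slc11a2, Slc41a1 and Slc39a14 lie on both sides of 0, while those of Slc31a2, Mt1, Hfe and Steap4 lie on the same side.

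Iron transporters were far apart. Ferroportin and Slc11a1 were higher in granulocytes, and the main Slc11a2 probe was higher in monocytes. Ferroportin, the gene Slc40a1, codes for the cell's iron exporter. Its signal was 21125 in granulocytes and 1536 in monocytes, levels of 5.96 and 1.31, at chr1:45852956-45853015. The difference was 4.65 ± 0.20, or 25.2-fold, and 0.897% of all genes were as far. It ran from 3.78 to 4.65 over the alternatives.

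Slc11a1, which pumps divalent metals out of phagosomes and away from engulfed microbes, had signals of 8794 and 4846 and a difference of 1.73 ± 0.20, or 3.32-fold, which was 0.86 without scaling. Slc11a2, the divalent metal transporter that moves iron out of endosomes, had 3 probes that did not agree. The probe nearest the 3′ end (chr15:100215936-100215995) had a signal of 27.3 in granulocytes and 552.2 in monocytes, a difference of -3.47 ± 0.23. The coding probe printed above, 22.2 kb upstream, had signals of 97.0 and 134.6 and a difference of 0.40 ± 0.21. The probe between them had 2.26 and 29.1, with a bound of -0.75. Slc11a2 transcripts are known to end in alternative 3′ exons. Which transcripts each probe reads was not tested, and with the mean over probes the difference was -1.27 and below 4-fold. The reported differences of Slc11a1 and Slc11a2 lay 5.20 ± 0.31 apart.

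In the transferrin cycle, Hfe and Steap4 lay past 4-fold on opposite sides. Hfe is the haemochromatosis protein, which binds the transferrin receptor. Its signal was 51.9 in granulocytes and 1743 in monocytes, levels of -2.71 and 1.49, at chr13:23711518-23711577. The difference was -4.20 ± 0.21, or 18.4-fold, and 1.33% of all genes were as far to the monocyte side. The second probe, with 3.07 and 125.2, gave a bound of -2.85, so both probes were brighter in monocytes.

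Steap4, a reductase of iron and copper, was above background in granulocytes only, by both of its probes. The printed probe had signals of 55.3 in granulocytes and 7.93 in monocytes and was at least 10.7-fold higher in granulocytes, a bound of 3.42. The other probe had 133.2 and 2.41, with a bound of 4.69. Steap3, the reductase of the transferrin cycle in red cell precursors, was weak in both samples (20.5 and 31.9) with a difference of 0.23 ± 0.30, negative without scaling and with the spike-in controls. Its second probe was above background in granulocytes only, with a bound of 1.58. The receptor itself, Tfrc, had signals of 161.5 and 420.3 over 10 spots and a difference of -0.51 ± 0.06. Its ligand transferrin, Trf, had 2536 and 3025 and a difference of 0.62 ± 0.20, which turned negative without scaling. Neither of these reported differences reached 2-fold, but that of Tfrc did with the spike-in controls (-1.01) and without scaling (-1.38).

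Both ferritin genes were bright on both arrays. Fth1, the heavy chain that oxidises iron for storage, had signals of 166817 and 124651 and a difference of 1.29 ± 0.20. It was below 2-fold with the spike-in controls (0.80), without scaling (0.42) and with quantile normalisation (0.37). Ftl1, the light chain, had 50353 and 60357 and a difference of 0.61 ± 0.20, negative without scaling. The chains thus differed by 0.68 ± 0.29 in their shift. The haem oxygenases, which free iron from haem, differed by less than 2-fold. Inducible Hmox1 gave 0.54 (4223 and 5309), with the sign turned without scaling, and constitutive Hmox2 gave -0.05 (5107 and 9677). The plasma ferroxidase ceruloplasmin, Cp, was weak, with signals of 11.2 and 8.07 and a bound of 1.12 (0.25 without scaling).

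The 2 iron regulatory proteins differed in direction. Ireb2, which is degraded when iron is plentiful, had signals of 2409 and 2215 and a difference of 0.99, with 0.82 and 0.87 at its other probes. Aco1, which serves as cytosolic aconitase when it holds an iron-sulfur cluster, had 480.2 and 3370 and a difference of -1.94 ± 0.20. Its other probe, 566 bases further 3′, was weak (35.3 and 52.7) and gave 0.29 ± 0.23. The reported differences lay 2.93 ± 0.29 apart. Aco1 passed 4-fold with quantile normalisation (-2.12), the authors' deposited value table (-2.12), the spike-in controls (-2.44) and no scaling (-2.81).

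The 2 copper transporters also differed from each other. Slc31a2, which lies mostly on internal membranes, had signals of 9543 in granulocytes and 2810 in monocytes (chr4:61784416-61784475). The difference was 2.64 ± 0.20, or 6.21-fold, with 2.53 at its other probe, and without scaling it was 1.76 and below 4-fold. Slc31a1, the high-affinity copper importer of the cell surface, had 1649 and 3165 and a difference of -0.07 ± 0.20. A second Slc31a1 probe, 1.56 kb further 3′, gave -1.32. The genes are neighbours on chromosome 4, with probes 91.3 kb apart, and their reported differences lay 2.70 ± 0.29 apart. Slc39a10 and Slc40a1, on chromosome 1, were the remaining pair of members within 1000 kb, with probes 900.1 kb apart and differences of -3.66 and 4.65.

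Among the magnesium transporters, Slc41a3, the mitochondrial one, had signals of 1840 and 988.3 and a difference of 1.77 ± 0.20, which was 0.90 without scaling. Slc41a1, of the plasma membrane, gave 0.35 ± 0.21 by the printed probe (58.7 and 84.5), negative without scaling, with the spike-in controls and with the mean over probes. Its other probe, 3.87 kb further 3′, had 4.12 and 162.2 and a bound of -3.23, which is on the other side. Slc41a2 was above background in monocytes only (7.28 and 52.0), with a bound of -1.59. It passed 4-fold without scaling (-2.46) and with the spike-in controls (-2.08), and normexp correction gave 0.0, which allows no fold.

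Of the 19 members with several probes, 16 had at least 2 above background on at least 1 array. In 8 of these the probes were 2-fold or more apart, and in 6 they had opposite signs: Aco1, Slc11a2, Slc39a1, Slc39a13, Slc39a14 and Slc41a1, with Slc39a1 counted although its probes lie on opposite strands. Probes of 1 gene had a median SD of 0.23 over the 5398 genes that could be compared in this way on both arrays. Of the 9 members past 4-fold, Steap4, Slc31a2, Hfe and Mt1 were past it at each of their probes, Slc39a4, Slc40a1 and Slc39a10 had a single probe, and Slc39a8 had 1 of 3 above background. Slc11a2 alone had probes that disagreed. No stretch longer than 11 bases was shared by probes of different members.

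**Figure D3:**
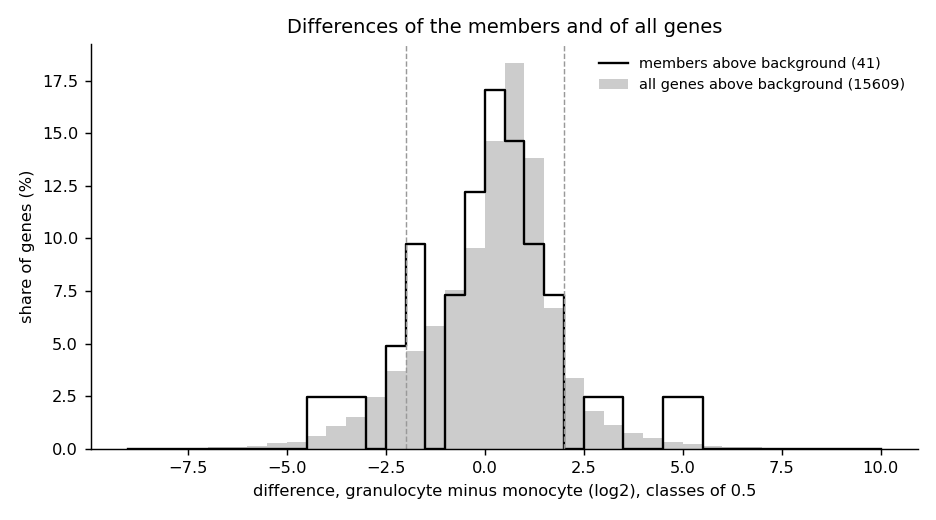
Share of genes (%) in classes of the difference between granulocytes and monocytes (0.5 log2 wide), for the 41 members above background (black line) and all 15609 genes above background (grey bars). Dashed lines mark 4-fold. The members spread over the range of all genes, from -4.20 to 5.23, and 51.2% of them lie within 2-fold.

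Other iron and haem genes, 47 from a list of carriers, haem synthesis enzymes and binding proteins, were described beside the members. Of the 41 above background, 6 (14.6%) passed 4-fold on the granulocyte side and 3 (7.32%) on the monocyte side. Over all genes these shares were 8.54% and 10.4%. The median was 0.29, against 0.41 over all genes. Higher in granulocytes were Lcn2 (3.86), which binds bacterial siderophores, Fbxl5 (3.12), the iron sensor that targets Ireb2 for degradation, and Ncoa4 (2.89), which carries ferritin to lysosomes. Slc25a37, the iron importer of mitochondria, gave 2.58. Higher in monocytes were Lrp1 (-4.74), the receptor for haem bound to haemopexin, Blvra (-2.79, with 1.92 at its other probe), which reduces biliverdin, and the haem synthesis enzyme Cpox (-2.23). The mitochondrial carrier Sfxn1 gave -1.55, with 0.0 as the bound at another of its probes.

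Of 11 other copper genes above background, 0 passed 4-fold on the granulocyte side and 1 (9.09%) on the monocyte side, around a median of -0.06. With so few genes this is near the shares over all genes, 8.54% and 10.4%. The gene past 4-fold was Sod1 (-2.47), the superoxide dismutase that holds copper and zinc. Its copper chaperone Ccs gave -1.55 and Sco1, which inserts copper into cytochrome oxidase, gave -1.03. The copper pump Atp7a gave 1.22. Of 5 further genes of zinc handling, 0 were 4-fold different, which with so few genes is also near the shares over all genes. Mt3 gave 1.54, Tmem163 gave -1.49, and Mtf1, the zinc-sensing activator of metallothionein genes, gave 0.12, with 1.32 at another probe.

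Of 17 other magnesium and manganese genes, 1 (5.88%) passed 4-fold on the granulocyte side and 2 (11.8%) on the monocyte side, around a median of 0.18. The 4-fold shares over all genes were 8.54% and 10.4%. The Golgi pump Atp2c1 gave 2.63, Nipal3 1.68, Cnnm2 1.34 and the channel Trpm6 a bound of 1.34. Tusc3 (-3.96), Magt1 (-2.15), Nipa1 (-1.15) and Mrs2 (-1.01) were higher in monocytes. Among 15 regulators of iron and stress genes, 7 passed 2-fold on the granulocyte side and 0 on the monocyte side, around a median of 0.94. Over all genes 29.1% and 20.9% passed 2-fold, around a median of 0.41. The largest were Mafg (2.33), Stat3 (1.94), Nfe2l2 (1.56, with probes from -1.81 to 1.56) and Arnt (1.23).

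**Figure D4:**
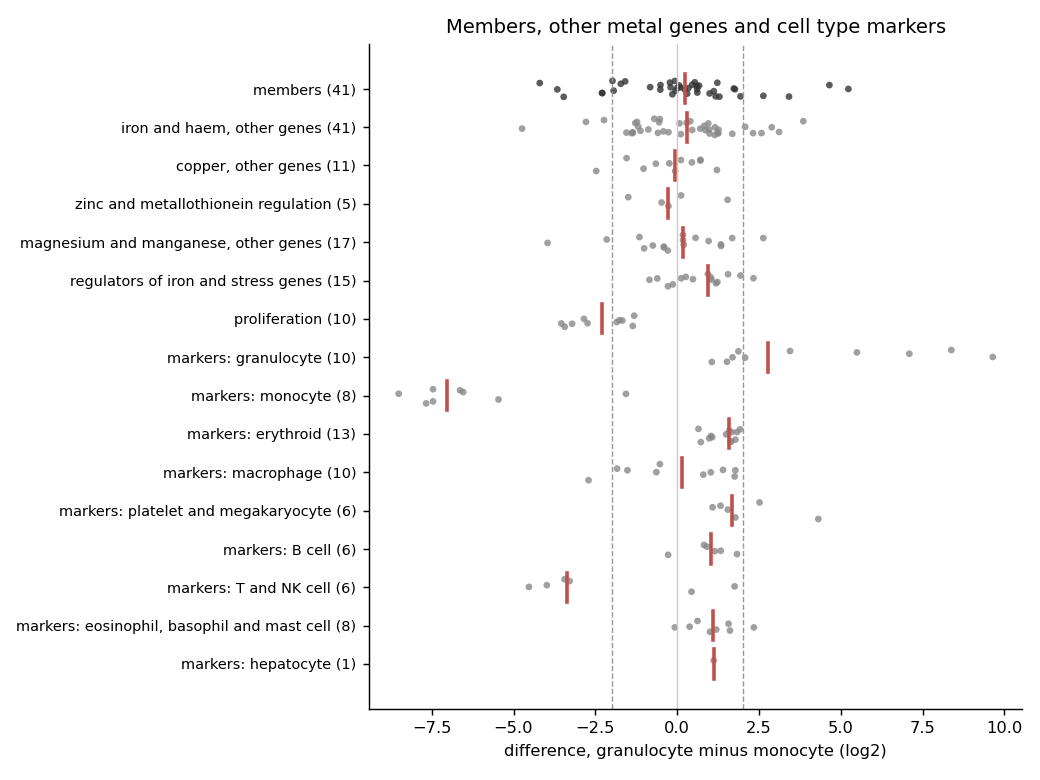
Differences between granulocytes and monocytes (log2) of the members, of companion gene lists and of cell type markers, with the number above background in brackets. Each point is a gene, red bars are medians, dashed lines are 4-fold, and the vertical spread of points carries no value. Erythroid markers lie between 0.65 and 1.92, and proliferation genes between -3.54 and -1.31.

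Markers of other cell types also differed between the arrays. All 13 erythroid markers were higher in granulocytes, by 0.65 to 1.92 (median 1.59, against 0.41 over all genes), and their summed scaled signal was 344.9 in granulocytes and 97.4 in monocytes (132.9 and 35.8 without the brightest, Hbb-bt). Ferroportin and ferritin are also made by red cell precursors, and the part of such cells in the values of Slc40a1, Fth1 and Slc25a37 was not tested. Of 12 macrophage markers, 10 were above background, 4 passed 2-fold on the granulocyte side and 3 on the monocyte side, around a median of 0.14. Their summed scaled signal was 10.1 and 28.5, but without Adgre1, the brightest, it was 3.03 and 3.16. C1qc (1.78), Marco (1.76) and C1qa (1.40) were higher in granulocytes. Axl (-2.71), Adgre1 (-1.84) and Vcam1 (-1.52) were higher in monocytes, and Vsig4 and Timd4 were not above background. The part of macrophages in the values of Slc40a1 and Hfe was not tested.

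Platelet markers were higher in granulocytes (6 of 6, median 1.67), as were 5 of 6 B cell markers (median 1.03) and 7 of 8 markers of eosinophils, basophils and mast cells (median 1.10). Over all genes 9307 of 15609 lay above 0, so this side was the more common one under the scaling used. Of 6 T and NK cell markers above background, 4 were at least 4-fold higher in monocytes (median -3.36), while Cd3d (1.76) and Cd3e (0.44) were higher in granulocytes. All 10 proliferation genes passed 2-fold on the monocyte side (median -2.29), against 20.9% of all genes. Tyms had probes from -2.87 to 0.91, and Top2a and Cdk1 each had a probe with a bound of 0.0. The part of proliferation in the monocyte side values of Hfe, Slc39a10 and Mt1 was not tested. Of 4 hepatocyte genes on the array, Alb, Ttr and Ahsg were not above background on either array, and Apoa1 had a bound of 1.12 in granulocytes. Without scaling each of these values would be 0.87 lower.

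**Figure D5:**
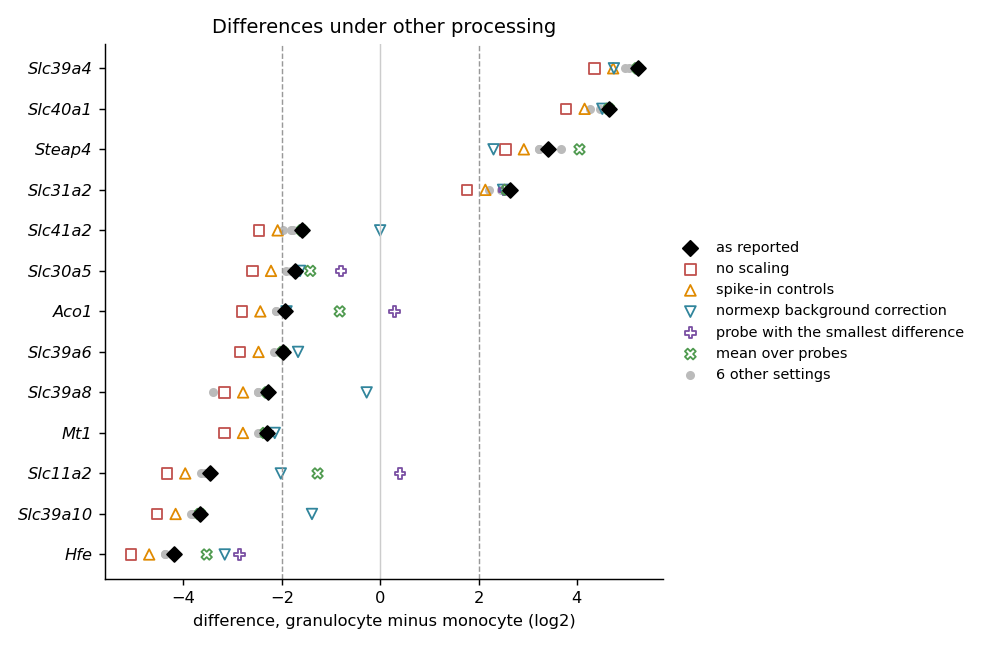
Differences (log2) of the 13 members that reached 4-fold (dashed lines) under any processing, as reported (black diamonds) and under 11 other settings. Slc39a4, Slc40a1, Steap4, Mt1 and Hfe stay beyond 4-fold in each setting that gave a value, while Slc11a2 reaches 0.40 with the probe of smallest difference and Slc39a8 -0.27 with normexp correction.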

How the data were processed

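Gene expression was measured with 1 Agilent one-colour array for granulocytes and 1 for monocytes. Per the labels, 0.5 µg of total RNA went into a linear T7 amplification with Cy3 label. Per the file headers, Feature Extraction 10.5.1.1 gave the deposited spot intensity with background subtracted, not normalised between arrays. The authors' deposited table is on a log2 scale. It differs from the log2 of the processed signal by 1 constant for each array (-0.24 and -0.92) for 100.0% of 40844 single-spot probes within 0.01, with column medians of 4.80 and 4.80. The rule behind the constants and the build used by the authors beyond the mm8 probe positions are not stated in the labels or headers used here.

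Control spots and outlier spots (143 and 103) were left out, and 0 spots were saturated. Levels are log2 processed signals minus the array's 75th percentile, averaged over spots. For a gene with several probes, the one above background on more arrays was taken, and the brightest among equals. A bound sets the bright level against the dim probe's level or, if higher, the lowest level that was well above background on the dim array (-5.16 in granulocytes, -6.04 in monocytes). Genes were counted at 4-fold, since 1 array per group allows no test and no p-value. All 70 member probes carry their RefSeq (GRCm38.p6 table) symbol, 58 by accession. The others were matched by the symbol itself, so for them a mismatch was not possible.

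Members and lists were chosen with earlier results of these data known. Every member is named. Those past 4-fold or with opposed probes are given in full, and from each companion list up to 4 genes each way that were at least 2-fold different. Alternatives were other scalings (median, quantile, spike-in controls, none), normexp correction with limma 3.58.1 (offset 50), the authors' table, other filters and rules for several probes, and 2-fold and 8-fold limits. Calculations were tested on simulated data made from the monocyte array, with known changes in genes with a bright probe. Bounds for dim probes were not tested in this way.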

Additional observations from a re-analysis of the deposited data

How the results depend on the processing

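Of the 9 members past 4-fold, none changed sign with quantile normalisation or normexp correction. The other scalings and the authors' table shift nearly every difference by 1 constant of at most 0.87. Such a shift cannot turn the sign of a 4-fold difference, so these settings could not decide this. Slc11a2 alone changed sign, with the probe of smallest difference (0.40). Without scaling, 9 members were 4-fold higher in monocytes, the member median was -0.57, and 581 and 3011 of all genes were 4-fold higher in granulocytes and monocytes. With the spike-in controls, 4 members were 4-fold higher in granulocytes and 9 in monocytes, and the member median was -0.19. Of all genes, 806 and 2343 were then 4-fold higher in granulocytes and monocytes. With normexp correction, 3 members were 4-fold higher in monocytes, and 872 and 895 of all genes passed in granulocytes and monocytes. A 2-fold limit gave 11 and 9 members and 4536 and 3256 of all genes. An 8-fold limit gave 3 members in monocytes and 522 and 666 of all genes. The normexp offset and the limits change these counts by construction. Leaving out the scaling and using the spike-in controls also do so, since each lowers nearly every difference by 1 constant. Of 445 member differences recomputed under 11 alternatives, 315 moved by less than 0.23 (the median SD between probes of a gene). Several settings leave many of these differences unchanged or shift them by a constant below 0.23. The count of 315 thus depends on the settings chosen and does not measure stability. Of the 445, the sign changed in 28, of which 1 was of a member past 4-fold (Slc11a2) and 27 were of members below it. No paired analysis was possible because each cell type had 1 array.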
